A study of Mus musculus with 6 samples.

Results

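The mature miRNAs of the miR-199 and miR-214 genes were examined in miRNA-seq of white adipose tissue (WAT). They were taken as the 5 rows of the deposited counts that carry the miRBase accessions of mouse miR-199a-5p (MIMAT0000229), miR-199a-3p (MIMAT0000230), miR-199b-5p (MIMAT0000672), miR-199b-3p (MIMAT0004667) and miR-214-3p (MIMAT0000661), out of 707 mature miRNAs. All 5 were found and all 5 passed the filter on low counts. The WAT came from male ApoE-deficient mice, which lack apolipoprotein E, a protein that clears lipoproteins from the blood, in both groups. The chronic intermittent hypoxia (CIH) group (3 libraries) was kept for 8 weeks in cages whose gas was cycled between 21% and about 6% oxygen, with 60 s for each fall and 60 s for each return. The control group (3 libraries) was ApoE-deficient mice outside this regimen. The strain background, the age of the mice, the fat depot and the gas given to the controls are not stated in the sources used here, and no mice with intact ApoE were compared.

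miRNAs are short RNAs that are cut from a hairpin precursor and guide the silencing of mRNAs, mainly through the seed, bases 2 to 8 from the 5′ end. Each hairpin can yield a 5p and a 3p mature miRNA, one from each arm. The miR-199 and miR-214 genes are known for their expression in fibroblasts and other mesenchymal cells, and Mir199a-2 and Mir214 are made from the same long noncoding transcript, Dnm3os. The mRNA of Hif1a, a subunit of the transcription factor that cells use in their response to low oxygen, is a known target of miR-199a. In bulk tissue, fewer cells of a type and less of an miRNA per cell cannot be told apart.

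The mature sequences are shown because they decide which rows a read can be counted in. RefSeq (GRCm38.p6) gave a mature entry for 4 of the 5 members, and miR-199b-5p is named only. The seed is in capitals.
miR-199a-5p: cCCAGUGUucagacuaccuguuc
miR-199a-3p: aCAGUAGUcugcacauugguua
miR-199b-3p: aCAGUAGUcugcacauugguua
miR-214-3p: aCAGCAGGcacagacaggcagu
The entries of miR-199a-3p and miR-199b-3p were identical over all 22 bases, so no read of this sequence can be assigned to the miR-199a or the miR-199b genes. The seeds of miR-199a-5p (CCAGUGU), of the shared 3p miRNA (CAGUAGU) and of miR-214-3p (CAGCAGG) were 3 different seeds. Among the 1679 mature names of the table, the seed of miR-214-3p was also held by miR-761, and the seed of the miR-199 3p miRNA by no other name than these members. No pair of the different mature sequences printed here shared a run of more than 5 bases. miR-199b-5p, which had no entry, was not compared.

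The members came from 4 hairpins at 3 places in the genome, each on the opposite strand of a dynamin gene, a family of GTPases that cut vesicles from membranes (GRCm38, GENCODE release M21). Mir199a-2 (chr1:162217814-162217923, plus strand) and Mir214 (chr1:162223368-162223477, plus strand) lay 5444 bases apart in exons of Dnm3os, within an intron of Dnm3 on the minus strand. Mir199a-1 (chr9:21496495-21496564, minus strand) lay in an intron of Dnm2 on the plus strand. Mir199b (chr2:32318460-32318569, plus strand) lay in an intron of Dnm1 on the minus strand. miR-199a-5p had the same sequence in Mir199a-1 and Mir199a-2, so its counts sum over both. Both hairpins of the Dnm3os locus are shown with the mature arms in capitals, since this is the locus where a miR-199 gene and the miR-214 gene share a transcript.
Mir199a-2: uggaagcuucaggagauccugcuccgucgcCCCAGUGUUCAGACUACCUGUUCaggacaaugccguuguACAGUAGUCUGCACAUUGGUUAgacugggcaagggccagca
Mir214: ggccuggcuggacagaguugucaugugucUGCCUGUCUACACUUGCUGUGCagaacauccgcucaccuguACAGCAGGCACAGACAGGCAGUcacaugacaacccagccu

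The 6 libraries held between 636963 and 4783768 counts. TMM factors, which correct a library total for differences in composition, ran from 0.575 (control 1) to 1.45 (CIH 3), and levels below are TMM-normalized CPM (counts brought to one library size) unless stated. Control 3 stood apart from the other controls. Over 633 miRNAs its log2 CPM correlated at 0.595 and 0.661 with control 1 and control 2, and at 0.958 to 0.974 with the CIH libraries. Results that rest on it are therefore given with and without it. Control 3 was singled out from these data, and leaving out the control most like the CIH libraries favours a group difference. The p-values and intervals without control 3 are therefore descriptive only. The labelled tissue was not checked against miRNAs typical of other cell types, since their names are not paired with the accessions here.

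The rows of miR-199a-3p and miR-199b-3p held nearly the same counts, as identical sequences allow. Their counts were 1414 and 1412 in control 1, 17294 and 17287 in control 2, and 4807 and 4806 in CIH 1. In the other 3 libraries both rows were equal, with 4977 counts in control 3, 3422 in CIH 2 and 4084 in CIH 3. Summed over the libraries, the rows held 35998 and 35988 counts and differed by 10. They are 1 measurement written in 2 rows, so the 5 rows carry 4 measurements, and the miR-199a-3p row stands for both below.

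Among the members, the shared 3p miRNA had the highest level and miR-214-3p the lowest in 5 of 6 libraries, the exception being control 1, where miR-199b-5p was lowest. By counts within a library, miR-199a-3p ranked between 20 and 50 of the 707 miRNAs, miR-199a-5p between 45 and 94, miR-199b-5p between 78 and 139, and miR-214-3p between 114 and 217. Such an order is one of reads and not of molecules, because the adapters join some small RNAs better than others.

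miR-199a-5p, the 5p arm of both miR-199a hairpins, was far higher in control 3 than in the other controls. It was counted 367, 1883 and 2312 times in control 1, 2 and 3 and 1770, 1351 and 1521 times in CIH 1, 2 and 3. Its level was 467, 454 and 2084 CPM in control 1, 2 and 3 and 1421, 1459.7 and 1649.7 CPM in CIH 1, 2 and 3. Control 1 and control 2 were below every CIH library, and control 3 was above every one of them, so that the groups overlapped. The control mean was 1002 ± 937 CPM and the CIH mean 1510.3 ± 122 CPM (SD, n = 3 for each). The log2 fold change (CIH over control) was 0.59 (standard error 0.80, 95% interval -1.31 to 2.50, adjusted p = 0.882 in edgeR's quasi-likelihood test). Without control 3, it was 1.70 (standard error 0.43, 95% interval 0.64 to 2.75, adjusted p = 0.0431 in the same test). That fit leaves out the control with the highest level, so its interval and p-value are descriptive.

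miR-199b-5p, the 5p arm of Mir199b, showed no such pattern. It had 188, 564 and 316 CPM in control 1, 2 and 3, from 148, 2336 and 351 counts, and 483, 238 and 308 CPM in CIH 1, 2 and 3, from 601, 220 and 284 counts. The highest and the lowest of the 6 libraries were both controls, control 2 and control 1. The control mean was 356 ± 191 CPM and the CIH mean 343 ± 126 CPM (SD, n = 3 for each), with a log2 fold change of -0.055 (standard error 0.66, 95% interval -1.63 to 1.52, adjusted p = 0.979 in edgeR's quasi-likelihood test). The sign of this fold change turned in 7 of 17 alternatives, among them library totals in place of TMM factors (0.11) and the fit without control 2 (0.50). The interval leaves room for a change of more than 2-fold (1 on the log2 scale) in either direction.

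miR-199a-3p, the sequence shared by all 3 miR-199 hairpins, was low in 1 control library. Its level was 1799, 4172 and 4486 CPM in control 1, 2 and 3 and 3860.4, 3697 and 4429.6 CPM in CIH 1, 2 and 3. Control 1 was the lowest, and the other 5 libraries lay close together, with control 2 and control 3 inside or just above the range of the CIH libraries. The control mean was 3486 ± 1469 CPM and the CIH mean 3996 ± 384 CPM (SD, n = 3 for each). The log2 fold change was 0.20 (standard error 0.64, 95% interval -1.32 to 1.72, adjusted p = 0.911 in edgeR's quasi-likelihood test), and it was -0.081 without control 1 and 0.40 without control 3. With upper-quartile factors it was -0.38, and under these factors the median over all miRNAs was -0.52, against 0.07 with TMM factors.

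miR-214-3p, the 3p arm of Mir214, was the member nearest to a call with all libraries, and its mean was lower in the CIH group. It was counted 165, 982 and 109 times in control 1, 2 and 3 and 87, 63 and 99 times in CIH 1, 2 and 3. Its level was 209.9, 237 and 98.2 CPM in control 1, 2 and 3 and 69.9, 68.1 and 107 CPM in CIH 1, 2 and 3. Control 1 and control 2 were above every CIH library, while control 3 was below CIH 3, so that the groups overlapped. The control mean was 182 ± 73.5 CPM and the CIH mean 81.8 ± 22.2 CPM (SD, n = 3 for each). The log2 fold change was -1.15 (standard error 0.60, 95% interval -2.58 to 0.27, unadjusted p = 0.0971 and adjusted p = 0.882 in edgeR's quasi-likelihood test). By unadjusted p-value it ranked 51 of the 633 miRNAs tested. Without control 3, the log2 fold change was -1.47 (standard error 0.42, unadjusted p = 0.0139 and adjusted p = 0.0641 in the same test). With library totals in place of TMM factors it was -0.65, on which scale the median of all miRNAs was 0.33.

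**Figure D1:**
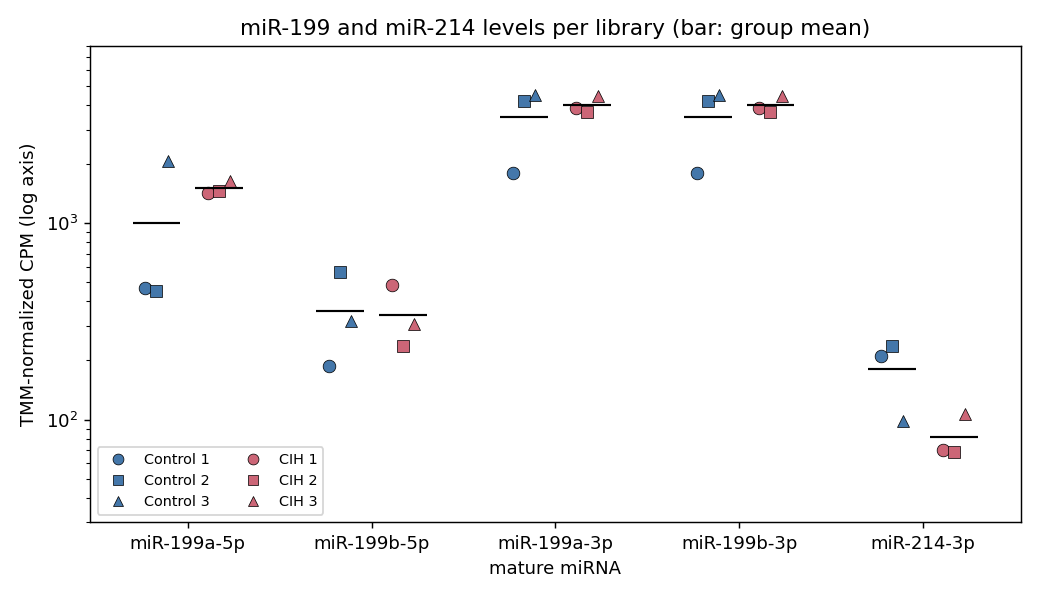
TMM-normalized CPM (log axis) of the 5 rows in each library, with controls in blue, CIH in red, a symbol for each replicate number and a bar at the group mean. The miR-199a-3p and miR-199b-3p columns repeat one measurement; for miR-199a-5p the controls at 467 and 454 CPM lie below and the control at 2084 CPM above the CIH libraries, and for miR-214-3p the controls at 209.9 and 237 CPM lie above them.

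miR-214-3p had the fewest counts of the members in every library but control 1, where miR-199b-5p had fewer. As a share of the library total, its 63 counts in CIH 2 were 85.4 CPM (95% Wilson interval 66.8 to 109) and its 87 counts in CIH 1 were 55.1 CPM (44.7 to 68.0). In control 2, its 982 counts were 205 CPM (193 to 219). On this scale CIH 3 had 155 CPM (128 to 189), above control 1 with 121 CPM (104 to 141) and control 3 with 137 CPM (114 to 166). The groups thus overlapped more on library totals than after TMM normalization. These intervals cover counting error only, and for each member those of the highest and the lowest control library did not overlap.

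Calls were counted as miRNAs with at least 1.5-fold change and an unadjusted p-value under 0.05, called the nominal criteria here. They are calls of the present fit and not the study's own list of changed miRNAs. The p-value level is that of the study's statistics section, whose text names no fold limit. By these criteria, 0 of the 5 members were called with all 6 libraries, against 2.53% of the 633 miRNAs tested (16 miRNAs). None of the members had an adjusted p-value under 0.05 in edgeR's quasi-likelihood test, as none of all miRNAs tested did (0%), and DESeq2 also gave 0. No member had an unadjusted p-value under 0.05 in either test (0 members). The groups overlapped for all 5 members, while they did not for 8.06% of the miRNAs tested.

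Without control 3, 2 of the 5 rows met the nominal criteria, miR-199a-5p upward and miR-214-3p downward, and 36.6% of the 614 miRNAs tested did. Upward calls were made for 24.4% of them and downward calls for 12.2%. An adjusted p-value under 0.05 was reached by miR-199a-5p alone among the members, and by 19.2% of all miRNAs tested, 16.6% being higher in the CIH group. Counted as 4 measurements, 2 of 4 met the criteria, and nothing is read from so small a count. The upper-quartile factors were the only other setting in which a member met the nominal criteria. Under them, miR-214-3p had a log2 fold change of -1.87 (unadjusted p = 0.0433 and adjusted p = 0.561 in edgeR's quasi-likelihood test), and 6.16% of miRNAs met the criteria.

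**Figure D2:**
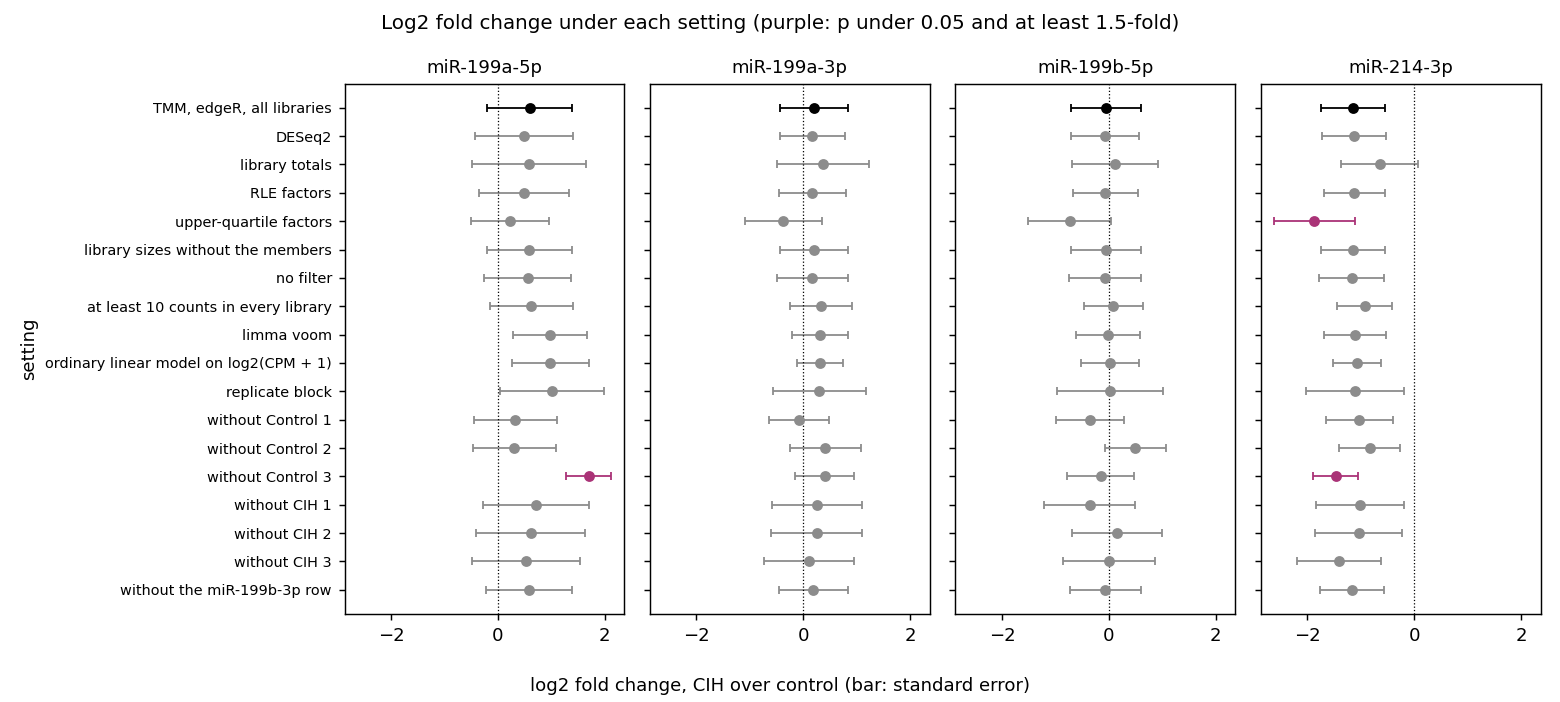
Log2 fold change (CIH over control, x axis, with the standard error as bar) of 4 members under each setting (y axis), in black for the reported fit and in purple where the nominal criteria were met. miR-199a-5p lies above 0 and miR-214-3p below 0 in every setting drawn, while miR-199a-3p and miR-199b-5p lie on both sides of 0; purple points appear without control 3 (1.70 and -1.47) and with upper-quartile factors (-1.87).

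Ratios between members of one library do not depend on the scaling between libraries, and they were compared to ask whether arms, paralogs and neighbours kept their proportions. In the ratio of both miR-199 5p rows to the shared 3p miRNA, the 5p reads made up 26.7%, 19.6% and 34.9% of the sum in control 1, 2 and 3, and 33.0%, 31.5% and 30.7% in CIH 1, 2 and 3. The 3p arm gave the most reads in every library, and the CIH libraries lay within the range of the controls. The log2 ratio differed by 0.36 between the groups (CIH minus control, two-sided exact permutation test, p = 0.4, 0.5 after adjustment over 3 ratios, where the smallest p possible is 0.1). Without control 3, the difference was 0.64 (p = 0.1, the smallest that the exact permutation test allows with 5 libraries).

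The miR-199a-5p and miR-199b-5p rows are named for different genes and, unlike the 3p rows, held clearly different counts. How far their sequences differ was not checked, since miR-199b-5p had no mature entry. The rule for shared reads is not given either, so the split of reads may not be that of the genes. miR-199b-5p made up 28.7%, 55.4% and 13.2% of the 5p reads in control 1, 2 and 3. In CIH 1, 2 and 3 it made up 25.3%, 14.0% and 15.7%. Control 2 was the only library in which miR-199b-5p had more reads than miR-199a-5p (95% Wilson interval of its share 53.9% to 56.9%), and control 1 and CIH 1 had similar shares. The log2 ratio of miR-199a-5p to miR-199b-5p averaged 1.24 ± 1.52 in the controls and 2.20 ± 0.56 under CIH (SD, n = 3 for each), a difference of 0.96. The same exact permutation test gave p = 0.5 (0.5 adjusted), and the difference was 0.18 without control 2 and 1.70 without control 3, the latter again at the smallest possible p of 0.1.

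miR-214-3p and miR-199a-3p, whose hairpins neighbour each other in Dnm3os, were also compared in their proportion. For each read of miR-214-3p there were 8.57, 17.6 and 45.7 reads of miR-199a-3p in control 1, 2 and 3. There were 55.3, 54.3 and 41.3 such reads in CIH 1, 2 and 3. Control 3 fell between CIH 3 and the other CIH libraries, and the proportion differed more within the control group than between control 3 and any CIH library. The log2 ratio of miR-214-3p to miR-199a-3p averaged -4.25 ± 1.21 in the controls and -5.63 ± 0.24 under CIH (SD, n = 3 for each). The difference was -1.38 (two-sided exact permutation test, p = 0.2, 0.5 adjusted). Without control 3 it was -2.01, again at the smallest possible p of the exact permutation test (0.1), as for all 3 ratios, and without control 1 it was -0.81. Because the 3p read also comes from Mir199a-1 and Mir199b, this ratio does not compare the 2 arms of the Dnm3os transcript alone.

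**Figure D3:**
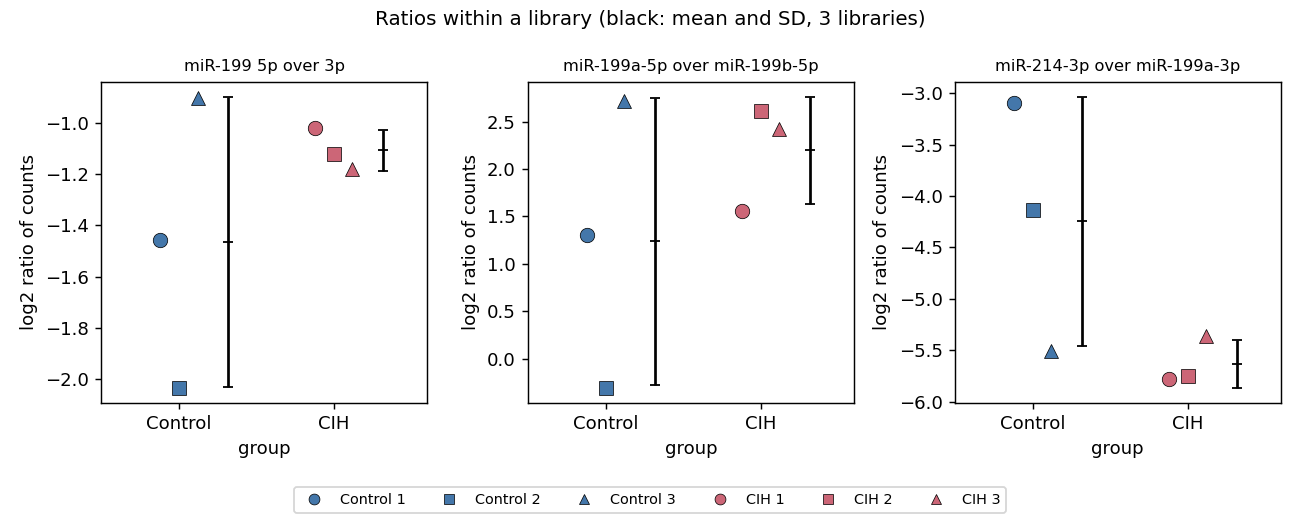
Log2 ratio of counts per library (y axis) for 3 pairs of members, by group (x axis), with the group mean and SD (n = 3) in black. In each panel control 3 lies near the CIH libraries and the controls span more than the CIH libraries, as in the SD of 1.21 against 0.24 for miR-214-3p over miR-199a-3p.

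After TMM normalization, the members varied more between control libraries than between CIH libraries, as most miRNAs did. The coefficient of variation of miR-199a-5p was 93.6% for the controls and 8.09% under CIH, and that of miR-199a-3p was 42.1% and 9.62%. It was 53.6% and 36.8% for miR-199b-5p, and 40.5% and 27.1% for miR-214-3p. The 204 miRNAs averaging 100 CPM or more had medians of 83.9% for the controls and 26.1% under CIH, and 181 of the 204 varied more among the controls. The tight CIH values of miR-199a-5p and miR-199a-3p held after TMM normalization and not on library totals. As shares of the library totals, miR-199a-5p had 1122, 1832 and 2388 CPM and miR-199a-3p had 3046, 4639.9 and 6412 CPM in CIH 1, 2 and 3. On that scale the order turned for miR-214-3p, with a coefficient of variation of 29.0% for the controls and 52.1% under CIH.

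The profile of miR-199a-3p over the 6 libraries was compared with those of 390 other miRNAs that averaged at least 10 CPM. The most alike were MIMAT0004577 (Pearson's r of log2 CPM 0.992, Spearman's rho 0.943) and MIMAT0000548 (0.983 and 0.829), and the 5 most alike had r between 0.961 and 0.992. These values describe 6 libraries, within each of which all miRNAs share one depth and composition, and no test was made. MIMAT0004577 had 0, 44 and 21 counts in control 1, 2 and 3 and 15, 9 and 14 in CIH 1, 2 and 3, and MIMAT0000548 had 20, 866 and 190, and 168, 113 and 148. Both were lowest in control 1, as miR-199a-3p was, and without control 1 their r was 0.836 and 0.700. Without control 1, r of the other 3 of the 5 was between 0.018 and 0.207, so that their likeness rested on that library. By r over the 6 libraries, the other members were less alike to miR-199a-3p than these 5 were. Their r was 0.617 for miR-199a-5p, 0.643 for miR-199b-5p and -0.44 for miR-214-3p, which came 89, 78 and 287 in the order of likeness. Spearman's rho was 0.60, 0.54 and 0.086 for these members, and between 0.486 and 0.543 for the other 3 of the 5. The order thus depended on the measure, and r of the members without control 1 was not computed.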

How the data were processed

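miRNA-seq of WAT was analysed in 3 control and 3 CIH libraries, grouped by their labels. The authors deposited raw read counts per mature miRNA accession, without normalization. The trimming, aligner, database and rule for reads shared by several miRNAs are not given in the sources used here. The 3p rows repeat each other's counts, and the library totals include both.

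A miRNA was tested if its 6 libraries summed to 10 counts or more (633 miRNAs). The test was edgeR's quasi-likelihood test (version 4.0.16, R 4.3.3) after TMM, comparing the groups without covariates, and p-values were adjusted over all 633 by Benjamini-Hochberg. Standard errors came from the fold change and the F statistic. Log2 CPM had a prior count of 2 and ratios a pseudocount of 0.5. Ratios used exact permutation tests. Python 3.11.15, numpy 2.4.6, scipy 1.17.1 and pandas 2.3.3 were used. The fit was tested on simulated data with the same spread in both groups. In the real data, the coefficient of variation beyond counting error was 1.43 for the controls and 0.435 under CIH. The simulation did not cover such unequal spread, and the fit used a shared spread for both groups. Alternatives were DESeq2 1.42.0, limma 3.58.1, 4 other scalings, 2 other filters, a linear model, a replicate block, each library left out, and, added after seeing the data, the fit without the miR-199b-3p row. The text names each member, each mature miRNA with a member's seed, and, of the 5 other miRNAs most alike to miR-199a-3p by r, the first 2 by accession. The members, lists and settings were chosen with earlier results of these data known. Lists of miRNAs by cell type, miR-214-5p and miR-761 are not analysed here in the counts, since names and accessions are not paired. The labels do not say that libraries are separate animals, so p-values measure the spread between libraries, which may be technical.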

Additional observations from a re-analysis of the deposited data

How the results depend on the processing

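The log2 fold change of miR-199a-5p stayed positive and that of miR-214-3p negative in all 17 alternatives, between 0.23 and 1.70 and between -1.87 and -0.65. The ends for miR-214-3p came from upper-quartile factors and library totals, where the medians of all miRNAs were -0.52 and 0.33. The range over the fits that each left out 1 library was 0.31 to 1.70 for miR-199a-5p, -0.081 to 0.41 for miR-199a-3p and miR-199b-3p, and -0.36 to 0.50 for miR-199b-5p. The sign of both 3p rows turned with upper-quartile factors (-0.38 for each) and without control 1 (-0.081 for each). That of miR-199b-5p turned with library totals (0.11), with at least 10 counts in every library (0.087), with the linear model (0.024), with the replicate block (0.020), and without control 2 (0.50), CIH 2 (0.15) or CIH 3 (0.0064). The number of members that met the nominal criteria was 1 with upper-quartile factors and 0 to 2 when libraries were left out in turn. Over all miRNAs, 16 met them in the reported fit, 26 with DESeq2, 39 with upper-quartile factors, 75 with limma voom, 3 with the replicate block and 1 to 225 when libraries were left out in turn, where 0 to 118 had an adjusted p-value under 0.05. Of the 5 miRNAs most alike to miR-199a-3p, 2 remained with library totals and 2 with Spearman correlation. The cause was not tested.

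Leaving out each library, the log2 difference of the ratio ran from 0.07 to 0.64 for miR-199 5p over 3p, from 0.18 to 1.70 for miR-199a-5p over miR-199b-5p, and from -2.01 to -0.81 for miR-214-3p over miR-199a-3p. Same-numbered libraries deviated together at 0.353, -0.116 and 0.0195. So few values cannot settle whether the replicate numbers pair the libraries, and the block gave no member a call. Merging rows with identical counts was not run, since both 3p rows differed in 3 libraries, and leaving out the miR-199b-3p row kept each member's sign. With 3 libraries against 3, the exact permutation test cannot go below 0.1. Counts of 63 to 165 in 5 libraries limit miR-214-3p.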
